A study of Mus musculus with 6 samples.

Results

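The mouse miRNA subfamilies miR-297, miR-466, miR-467 and miR-669 are made largely from 1 tandem cluster of hairpins inside the gene Sfmbt2, and their levels in kidney were compared between mice kept under chronic intermittent hypoxia (CIH) and mice kept in room air (Control). Members were chosen by name alone, as every mature miRNA whose name begins with mmu-miR-297, mmu-miR-466, mmu-miR-467 or mmu-miR-669. This gave 30 of the 495 mature names in the deposited counts, with 3 names of miR-297, 12 of miR-466, 7 of miR-467 and 8 of miR-669. Because several names carried the same counts in all 6 libraries, the 30 names held 20 distinct measurements, out of 485 in the whole data set. By subfamily these were 1, 8, 5 and 6 measurements.

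Sfmbt2 encodes a Polycomb group protein and is an imprinted gene, expressed from the paternal copy in early mouse embryos and placenta. The hairpin array in its intron is known from rodents and is best studied in embryonic stem cells and placenta. Each hairpin can release a mature strand from its 5′ side (the 5p arm) and another from its 3′ side (the 3p arm), and the strand that is loaded into Argonaute guides it to mRNAs mainly through the seed, the bases near its 5′ end. The hairpins are copies of one another with stretches of alternating GU and CA repeats, so that a short read can fit several of them equally well.

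Small RNA from kidney tissue of male balb/c mice was sequenced in 3 Control and 3 CIH libraries. In the CIH group oxygen was lowered from 21% to 6% and returned in 2-minute cycles, 30 per hour and 8 hours per day, for 8 weeks, while Control mice received room air at 21% oxygen for the same 8 weeks. No transgene or drug is named for either group, and the age of the mice is not given in the sources used here. Whether each library came from a separate mouse is not stated, so a p-value here measures spread among libraries only, and that spread may be technical.

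The libraries held 5431797 to 7741499 counts. Among the marker miRNAs of kidney tubules, all 5 were measured, and their summed level ran from 243050 to 318900 counts for each 1000000 of the library (CPM) in Control and from 230470 to 263480 CPM in CIH. The liver miRNA mmu-miR-122-5p lay between 17.4 and 77.9 CPM, and the summed level of 4 leukocyte miRNAs lay between 343 and 404 CPM over all libraries. The urothelial mmu-miR-205-5p was at 0.50 CPM in CIH replicate 1 and between 18.6 and 38.8 CPM in the other libraries. Among the markers of other cell types, 2 had an unadjusted p under 0.05 from edgeR, both with higher values in CIH. They were the pancreatic mmu-miR-217-5p, at 0 to 0.297 CPM in Control and 0.273 to 4.57 CPM in CIH, with its highest value in CIH replicate 3, and the erythroid mmu-miR-486a-5p, at 386 to 535 CPM in Control and 578 to 650 CPM in CIH. The summed level of all 3 erythroid markers overlapped between the groups, at 5338.7 to 6537.3 CPM in Control and 5547.5 to 7124.9 CPM in CIH. The neuronal mmu-miR-9-5p had 857 to 994 CPM in Control and 503 to 910 CPM in CIH. The part of these cell types in the members' values was not tested, and mmu-miR-216a-5p and mmu-miR-124-3p were not among the names analysed here.

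On the GRCm38 build with the GENCODE M21 annotation, Sfmbt2 lies at chr2:10370510-10595253 on the plus strand. Of 81 annotated miRNA genes of the 4 subfamilies, 71 lie inside it, all on the plus strand and none overlapping an exon. All 71 fall in 1 intron, the intron numbered 10 of the 22 in the full-length transcript used, at chr2:10461473-10523944, and they occupy 51617 bases of its 62472. They comprise 5 genes of miR-297, 23 of miR-466, 14 of miR-467 and 29 of miR-669. The other 10 genes lie elsewhere, on chromosomes 3, 5, 7, 9, 10, 11 and 13.

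**Figure D1:**
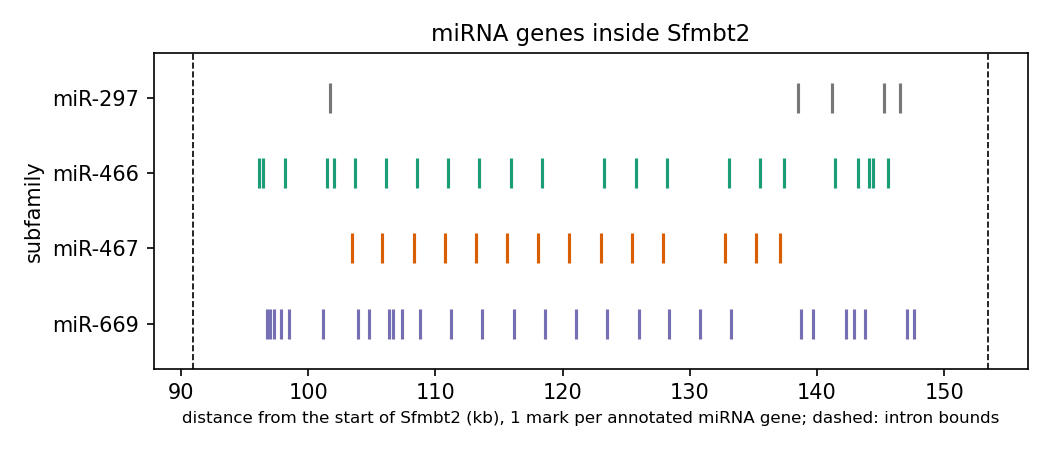
Position of the 71 annotated miRNA genes inside Sfmbt2, as distance in kb from the start of the gene (x axis), 1 row for each subfamily (y axis), with the bounds of the intron as dashed lines. The 14 miR-467 genes alternate with miR-466 and miR-669 genes through the middle of the array, and 4 of the 5 miR-297 genes lie toward its end.

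By name, 29 of the 30 members matched annotated miRNA genes, and for 27 of them every matched gene lay inside Sfmbt2. mmu-miR-466f-3p matched 3 genes inside Sfmbt2 and 1 on chromosome 13. mmu-miR-466i-5p matched a single gene at chr13:17747473-17747593, which is outside the array. This placement rests on the name alone. mmu-miR-466a-3p was matched to no gene by name. The array is highly copied at some positions: the annotation holds 12 genes for mmu-miR-669a and 10 for mmu-miR-467a, and the deposited counts list mmu-miR-669a-5p at 12 entries and both arms of mmu-miR-467a at 10. Other members have 1 gene each, among them mmu-miR-467c at chr2:10473931-10474027 and mmu-miR-669c at chr2:10509296-10509404.

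Sequences are shown for the members that were lower in CIH at an unadjusted p under 0.05 and whose mature strand was given with the study's supplementary tables, which holds for 4 names. The RefSeq table of mature miRNAs used here held none of the 30 names. They are printed 5′ to 3′ with the seed, bases 2 to 8, in capitals.
mmu-miR-466d-5p: uGUGUGUGcguacauguacaug
mmu-miR-466n-5p: gUGUGUGCguacauguacaugu
mmu-miR-466d-3p: uAUACAUAcacgcacacauag
mmu-miR-467e-3p: aUAUACAUacacacaccuauau
The 5p strands are rich in G and U (68.2% of their bases), and the 3p strands are rich in A and C (71.4% for mmu-miR-466d-3p and 72.7% for mmu-miR-467e-3p). The 5p strands of mmu-mir-466d and mmu-mir-466n are the same sequence shifted by 1 base, with 21 bases in common, and the shift gives them different seeds.

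The letters UGUGUG occur in both 5p strands, and in 1.67% of the 1674 distinct mature sequences of the RefSeq table. The letters UAUACAUA occur in both 3p strands and in 1 sequence of that table, and ACACAC occurs in mmu-miR-467e-3p and in 0.657% of the table. Only the given strand of each mature sequence was searched. By seed, mmu-miR-466d-5p matched mmu-miR-466k and mmu-miR-466d-3p matched mmu-miR-467g of the same table, and neither was among the miRNAs measured here.

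The hairpins of 2 names with identical counts are shown for what they have in common. The mmu-mir-466d hairpin (chr2:10511967-10512062, plus strand) is printed with its 5p and 3p strands in capitals, and the mmu-mir-466n hairpin (chr2:10513741-10513834, plus strand) with mmu-miR-466n-5p in capitals.
mmu-mir-466d: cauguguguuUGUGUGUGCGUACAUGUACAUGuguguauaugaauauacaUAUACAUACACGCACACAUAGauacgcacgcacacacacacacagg
mmu-mir-466n: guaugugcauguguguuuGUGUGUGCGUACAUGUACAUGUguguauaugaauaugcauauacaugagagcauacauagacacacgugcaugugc
Both 5p sequences occur in full in both hairpins, and the 2 names carried identical counts. mmu-miR-466d-3p and mmu-miR-467e-3p each occurred in 1 annotated mouse miRNA hairpin, their own.

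Identical counts joined 7 sets of names, each given below by its first name. They were mmu-miR-297a-3p with mmu-miR-297b-3p and mmu-miR-297c-3p, mmu-miR-466b-3p with mmu-miR-466c-3p, mmu-miR-466e-3p and mmu-miR-466p-3p, and mmu-miR-466d-5p with the shifted mmu-miR-466n-5p. In the other sets mmu-miR-467a-5p was joined with mmu-miR-467b-5p, mmu-miR-467a-3p with mmu-miR-467d-3p, mmu-miR-669a-3p with mmu-miR-669o-3p, and mmu-miR-669a-5p with mmu-miR-669p-5p. mmu-miR-466a-3p differed from mmu-miR-466b-3p by 0 to 3 counts in each library, so these 2 measurements are close to 1. A change in any of these sets cannot be assigned to 1 of its names.

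In kidney these miRNAs were scarce. The members' mean level ran from 0.91 CPM for mmu-miR-466d-5p to 110 CPM for mmu-miR-467a-5p, and all 20 together made up 0.0183% to 0.0265% of a library. Of the 20 measurements, 18 lay below the median level of all 485, and 3 reached a mean of 10 CPM. In 10 of the 20 the mean was under 20 counts per library, where counting error alone has a coefficient of variation of 23.7% to 39.7%. For mmu-miR-467a-5p, with a mean of 762 counts, it is 3.62%.

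**Figure D2:**
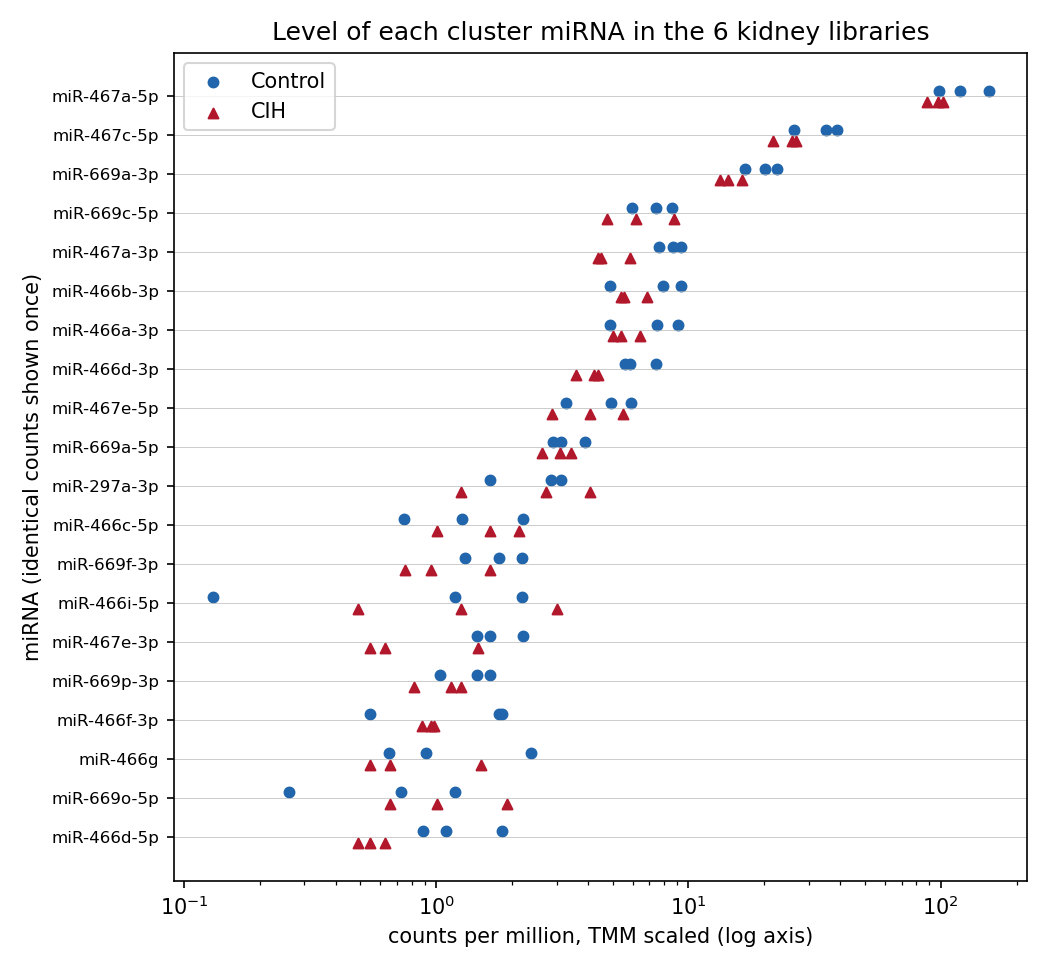
Level of each member in CPM on a log axis (x axis), 1 point for each of the 3 Control libraries (circles) and 3 CIH libraries (triangles), ordered by mean level (y axis). mmu-miR-467a-5p, mmu-miR-467c-5p and mmu-miR-669a-3p stand above the rest, and the CIH points lie below all Control points for 4 members.

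Compared with the Control group, most members had lower values in the CIH group, although none passed after adjustment over all miRNAs. Of the 20 measurements, 16 had a negative log2 fold change (CIH over Control), against 51.1% of all 485. At an unadjusted p under 0.05 from edgeR's quasi-likelihood test, 7 of the 20 were lower in CIH and 0 were higher. Of all 485, 4.33% were lower and 14 measurements were higher. In 4 of the 20 every CIH library lay below every Control library, against 6.8% of all 485. In 0 of the 20 did every CIH library lie above, against 26 of all 485. With higher values this rare over all 485, a count of 0 among 20 says little. mmu-miR-466d-5p, counted among both the 7 and the 4, had 38 counts in total, near the lowest total of any deposited entry, 32. The members' median log2 fold change was -0.37, from -1.18 for mmu-miR-466d-5p to 0.76 for mmu-miR-669o-5p, and that of all 485 was -0.0017. After Benjamini-Hochberg adjustment over all 495 names no member passed 0.05, the lowest adjusted p from edgeR was 0.58, and the share called over all 485 was 0%.

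Over all 495 names, 39 had an unadjusted p under 0.05 from edgeR, 29 from DESeq2 and 35 from limma, and 0 passed after adjustment by any of the 3. These calls are in either direction, and names with identical counts are each counted. Over the 485 distinct measurements edgeR called 21 lower and 14 higher. The number of members called lower changed whichever single library was left out. It was 3 when Control replicate 1 was left out, likewise CIH replicate 1 or 2, and it was 2 without Control replicate 3 or CIH replicate 3. Without Control replicate 2 it was 9. Without Control replicate 3 the members' median log2 fold change was -0.19. DESeq2 called 4 members lower and limma 6.

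**Figure D3:**
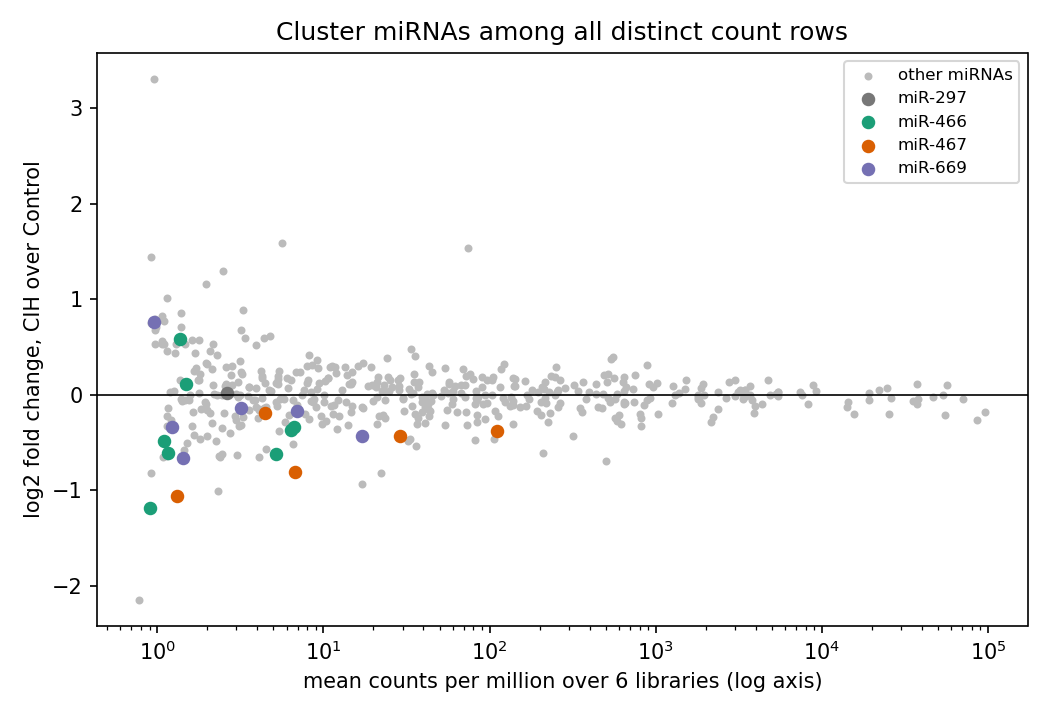
The log2 fold change (y axis) against mean CPM on a log axis (x axis) for all 485 distinct measurements, with the 20 members in color by subfamily and the others in gray. Of the members, 16 lie below 0, and the 3 with a mean of at least 10 CPM lie between -0.43 and -0.38.

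The summed level of the 20 members was 225, 200 and 285 CPM in the Control libraries and 183, 186 and 177 CPM in the CIH libraries. All CIH sums lay below all Control sums, and Control replicate 3 stood highest. The ratio of the group means was 0.768, with a Control mean of 237 ± 43.8 CPM (SD, n = 3) and a CIH mean of 182 ± 4.58 CPM (SD, n = 3). It was 0.852 without Control replicate 3. mmu-miR-467a-5p supplied 49.3% to 55.6% of the sum in each library, and without it the sums were 106, 101 and 130 CPM in the Control libraries, against 81.3, 88.6 and 88.5 CPM under CIH, a ratio of 0.765 with no overlap. The summed kidney tubule markers were also highest in Control replicate 3 (318900 CPM), and their part in the members' result was not tested. In tissue libraries such as these, fewer cells of a type and less RNA per cell cannot be told apart.

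The miR-467 subfamily was the most abundant and had the most members called. All 5 of its measurements had a negative log2 fold change, 4 of the 5 were lower at an unadjusted p under 0.05, and the median was -0.43. Over all 485 measurements the shares were 51.1% negative and 4.33% lower at that threshold. Its summed level was 160, 147 and 211 CPM in the Control libraries, against 138, 127 and 127 CPM under CIH. The groups did not overlap, and the ratio of the means was 0.755.

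mmu-miR-467a-3p, far below mmu-miR-467a-5p in level, had the smallest p of the members. It had 59, 48 and 63 counts in the Control libraries, against 35, 33 and 36 counts under CIH, which are 7.67, 8.71 and 9.35 CPM against 4.39, 4.50 and 5.88 CPM. All CIH libraries lay below all Control libraries. Its log2 fold change was -0.80 (standard error 0.20, adjusted p = 0.58 from edgeR), and it kept an unadjusted p under 0.05 with each of the 6 libraries left out, at -0.94 to -0.73. These counts are shared with mmu-miR-467d-3p.

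mmu-miR-467a-5p, named for the opposite strand of the mmu-miR-467a hairpins, was the most abundant member. Its counts are shared with mmu-miR-467b-5p, so the 2 measurements do not cover the same set of hairpins. It had 119, 98.7 and 155 CPM in the Control libraries, against 102, 97.5 and 88.5 CPM under CIH. The groups overlapped, since CIH replicate 1 lay above Control replicate 2, and Control replicate 3 was far the highest. edgeR gave a log2 fold change of -0.38 with a standard error of 0.17 (adjusted p = 0.63), where the unadjusted p lay just inside the threshold of 0.05. Of the 6 fits with 1 library left out it stayed inside only in that without Control replicate 2, and without Control replicate 3 the log2 fold change was -0.19. With all 6 libraries kept, the unadjusted p missed 0.05 in limma and with a block for replicate number. It also missed with library totals or DESeq2's scaling in place of TMM, and stayed under 0.05 with DESeq2's Wald test.

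mmu-miR-467c-5p, the next in level and the product of a single annotated gene, had 26.2, 35.0 and 38.9 CPM in the Control libraries, against 25.7, 21.7 and 26.6 CPM under CIH. CIH replicate 3 lay just above Control replicate 1, so the groups overlapped. On the log2 scale CIH was at -0.43 relative to Control (standard error 0.18, adjusted p = 0.58 from edgeR), and of the fits with 1 library left out only that without Control replicate 1 kept the unadjusted p under 0.05.

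mmu-miR-467e-3p, whose sequence is printed above, had 17, 8 and 11 counts in the Control libraries, against 5, 4 and 9 counts under CIH. CIH replicate 3 lay within the Control range when scaled to depth, at 1.47 CPM against 1.45 CPM in Control replicate 2. On the log2 scale CIH was at -1.06 relative to Control (standard error 0.45, adjusted p = 0.58 from edgeR). The unadjusted p stayed under 0.05 in the fits without Control replicate 2 or CIH replicate 3, missed it in the other 4 that leave out 1 library, and missed it with DESeq2's Wald test. Its partner mmu-miR-467e-5p had 3.27 to 5.94 CPM in Control and 2.87 to 5.52 CPM in CIH, with a log2 fold change of -0.19 (standard error 0.30).

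The miR-466 subfamily held 8 measurements, of which 6 had a negative log2 fold change, against 51.1% of all 485. At an unadjusted p under 0.05, 2 of the 8 were lower, against 4.33% of all 485, and the median was -0.43. Its summed level was 27.9, 21.4 and 32.8 CPM in the Control libraries, against 20.1, 24.2 and 19.3 CPM under CIH. CIH replicate 2 lay above Control replicate 2, so that the groups overlapped, and the ratio of the means was 0.773.

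Both measurements named for the strands of mmu-mir-466d were lower in CIH with no overlap. mmu-miR-466d-3p had 5.85, 5.63 and 7.42 CPM in the Control libraries, against 4.39, 4.23 and 3.59 CPM under CIH, from 22 to 50 counts per library. Its log2 fold change was -0.62 (standard error 0.21, adjusted p = 0.58 from edgeR), and the unadjusted p missed 0.05 without Control replicate 3 or CIH replicate 3 and with DESeq2. mmu-miR-466d-5p, which shares its counts with mmu-miR-466n-5p, had 14, 6 and 6 counts in the Control libraries, against 5, 4 and 3 counts under CIH. All CIH libraries were lower, but on a few reads. The total for mmu-miR-466d-5p, 38 counts, was near the lowest of any deposited entry, 32. The part of such a floor in its values was not tested. The fitted log2 fold change was -1.18 (standard error 0.47, adjusted p = 0.58 from edgeR), and the unadjusted p missed 0.05 with DESeq2 and when CIH replicate 2, CIH replicate 3 or Control replicate 1 was left out.

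mmu-miR-466b-3p, the most abundant miR-466 measurement, had 7.93, 4.90 and 9.35 CPM in the Control libraries, against 5.40, 6.83 and 5.55 CPM under CIH. Control replicate 2 was the lowest of all 6 libraries while the other Control libraries were the highest. The log2 fold change was -0.33 (standard error 0.25, adjusted p = 0.81 from edgeR), and that of the nearly identical mmu-miR-466a-3p was -0.36 (standard error 0.25). Without Control replicate 2 they were -0.54 and -0.56, both then at an unadjusted p under 0.05, and without Control replicate 3 they were -0.14 and -0.18.

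The remaining miR-466 members had no more than 22 counts in a library. On the log2 scale mmu-miR-466f-3p was at -0.61 (standard error 0.47), and mmu-miR-466g, named without an arm, at -0.49 (standard error 0.59). mmu-miR-466c-5p was at 0.11 (standard error 0.46). mmu-miR-466i-5p, the member whose gene lies on chromosome 13, had 1, 12 and 8 counts in the Control libraries, against 10, 22 and 3 counts under CIH, with a log2 fold change of 0.58 (standard error 0.75). In each of these 4 the groups overlapped, and none passed the test with all libraries. Without Control replicate 2, mmu-miR-466f-3p was at -0.93 with an unadjusted p under 0.05.

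The miR-669 subfamily held 6 measurements, 5 with a negative log2 fold change, against 51.1% of all 485, with a median of -0.25. At an unadjusted p under 0.05, 1 of the 6 was lower, against 4.33% of all 485. Its summed level was 34.0, 29.9 and 38.7 CPM in the Control libraries, against 23.7, 32.1 and 27.1 CPM under CIH, with a ratio of 0.807 and overlapping groups. Its most abundant strand was mmu-miR-669a-3p, with 20.1, 16.7 and 22.4 CPM in the Control libraries, against 13.3, 16.2 and 14.4 CPM under CIH. All CIH libraries lay below all Control libraries, although CIH replicate 2 and Control replicate 2 were close. Its log2 fold change was -0.43 (standard error 0.18, adjusted p = 0.58 from edgeR), and the unadjusted p stayed under 0.05 without Control replicate 2 or CIH replicate 2 but not without any of the other 4 libraries.

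mmu-miR-669c-5p had 7.41, 5.99 and 8.61 CPM in the Control libraries, against 4.77, 8.74 and 6.21 CPM under CIH. The groups overlapped fully, with the highest and the lowest value both in CIH, and the log2 fold change was -0.17 (standard error 0.26). mmu-miR-669a-5p stood at -0.13 (standard error 0.25), mmu-miR-669p-3p at -0.34 (standard error 0.39) and mmu-miR-669f-3p at -0.66 (standard error 0.41), none past the test. mmu-miR-669o-5p, with 2 to 14 counts in a library, had the highest log2 fold change of the members, 0.76 (standard error 0.60, adjusted p = 0.81 from edgeR).

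The miR-297 names gave a single measurement, mmu-miR-297a-3p. It had 2.86, 1.63 and 3.12 CPM in the Control libraries, against 1.25, 2.73 and 4.08 CPM under CIH, and the log2 fold change was 0.02 (standard error 0.42). The CIH libraries spread more widely than the Control libraries.

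**Figure D4:**
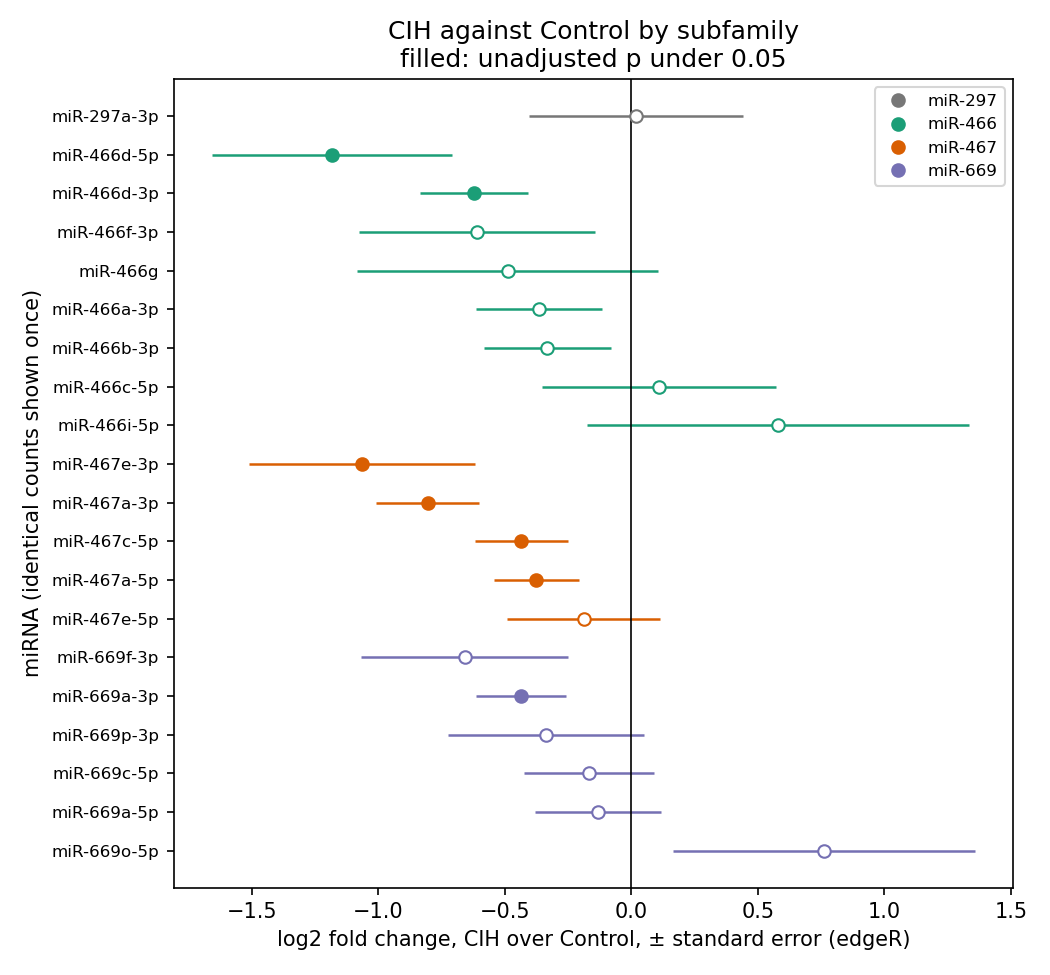
The log2 fold change of CIH over Control with its standard error from edgeR (x axis) for the 20 members (y axis), in color by subfamily, with filled points for an unadjusted p under 0.05. The 7 filled points all lie below 0, and 4 of them belong to miR-467.

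By arm, 9 of 10 measurements of the 3p arm and 6 of 9 of the 5p arm had a negative log2 fold change, with medians of -0.52 and -0.17. Of the 3p arm 4 were lower at an unadjusted p under 0.05, and of the 5p arm 3. The summed 3p arm was 58.3, 48.1 and 67.5 CPM in the Control libraries, against 37.3, 44.2 and 44.1 CPM under CIH, a ratio of 0.722. The summed 5p arm was 166, 151 and 215 CPM in the Control libraries, against 144, 141 and 132 CPM under CIH, a ratio of 0.784. Most of this 5p sum came from mmu-miR-467a-5p. Without it the 5p sums were 46.9, 52.5 and 60.5 CPM in Control and 42.5, 43.8 and 43.8 CPM under CIH, a ratio of 0.814. In both arms the groups did not overlap. Within miR-467 the 3p arm had a ratio of 0.562 and the 5p arm of 0.768, and within miR-669 the 3p arm had 0.736, with no overlap, and the 5p arm 0.951, with overlap. The miR-466 3p and 5p arms had ratios of 0.744 and 0.971, both with overlap.

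**Figure D5:**
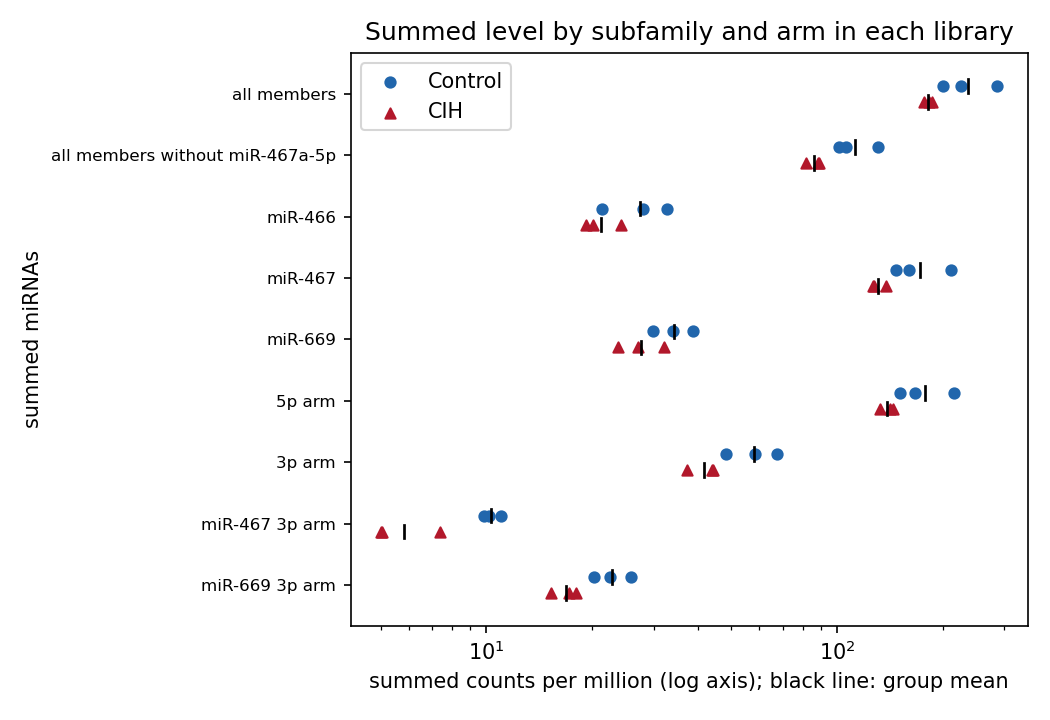
Summed CPM on a log axis (x axis) of all members, of all but mmu-miR-467a-5p, and of members by subfamily and arm (y axis), 1 point for each Control (circle) and CIH (triangle) library, with the group mean as a black line. Not drawn are the single miR-297 measurement, both arms of miR-466 and the 5p arm of miR-669, where the groups overlap. The 5p arm of miR-467, where they do not, is also left out. The sums drawn share members, so they are not separate results. The groups overlap for miR-466 and miR-669 and do not overlap in the other 7 sums drawn, where the means for all members are 237 and 182 CPM.

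The balance of the arms was compared between the groups by the log2 ratio of 3p to 5p counts, with a small constant added to each. It is printed as the share of the 3p strand in the counts of both, for the 7 stem names with both arms measured. These are not 7 separate hairpins, since mmu-miR-669o takes the counts of mmu-miR-669a-3p, mmu-miR-669p those of mmu-miR-669a-5p and mmu-miR-466c those of mmu-miR-466b-3p, and mmu-miR-669a and mmu-miR-467a each cover many genes. mmu-miR-467a also shares its 3p counts with mmu-miR-467d-3p and its 5p counts with mmu-miR-467b-5p. The 5p counts of mmu-miR-466d are shared with mmu-miR-466n-5p. Such a share is therefore not the arm ratio of the named hairpins alone. The strand that prevails differs between stem names: the 3p share was 4.14% to 8.11% for mmu-miR-467a and 82.2% to 87.8% for mmu-miR-669a. For mmu-miR-669a the share was 83.8%, 85.2% and 87.8% in Control and 83.5%, 82.6% and 82.2% in CIH. All CIH libraries lay below all Control libraries, by less than 1 percentage point at the closest (two-sided exact permutation test, p = 0.1, the smallest that 3 against 3 allow, adjusted p = 0.467 over the 7 stem names). For mmu-miR-467a the share was 6.03%, 8.11% and 5.69% in Control and 4.14%, 4.42% and 6.23% in CIH, with overlap (exact permutation p = 0.3). For the other 5 the exact permutation p ran from 0.2 to 0.7. With 3 libraries in each group this test cannot reach 0.05, so it says nothing on whether the arms differed.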

How the data were processed

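Kidney small RNA libraries were made with the NEBNext small RNA kit. The authors trimmed adapters with cutadapt, aligned reads with Bowtie and deposited raw read counts for each mature miRNA at each precursor, with 584 entries. For these tools and for miRBase, the version is not given in the sources used here. How reads that fit several hairpins were counted is also not stated there. Copies often carry identical counts, though not for every name: the 8 entries of mmu-miR-466b-3p held 2 distinct sets of counts. For the 44 names with more than 1 entry, only the entry with the largest sum of counts was used, and names with identical counts were described once.

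Groups were taken from the sample titles. CIH was compared with Control in edgeR 4.0.16 (quasi-likelihood test, TMM, condition only) in R 4.3.3, with p-values adjusted over all 495 names. A name needed counts above 0 in 3 or more libraries, which removed none. The biological coefficient of variation was 15.7%. CPM use TMM-scaled totals, and 1 count is 0.126 to 0.182 CPM. Arm shares were compared with scipy 1.17.1. Alternatives covered normalization, filters, DESeq2 1.42.0, limma 3.58.1 on log2(CPM + 0.5), repeated entries, a replicate block and each library left out. Scripts were tested on simulated data. Every member is named. Library values are given for members at an unadjusted p under 0.05 and the 6 most abundant. Members, lists and tests were chosen with earlier results of these data known. RT-qPCR and histology were not analysed here.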

Additional observations from a re-analysis of the deposited data

How the results depend on the processing

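The number of members lower in CIH at an unadjusted p under 0.05, 7 of 20 in edgeR, was 4 with library totals in place of TMM, 4 with DESeq2's Wald test, and 3 among miRNAs that averaged 10 CPM or more, where only 3 members remain to be tested. With 1 library left out it ran from 2 to 9. Over all 495 names, in either direction and with identical counts repeated, the calls numbered 39. They numbered 24 when a mean of 10 CPM was required, and 21 to 67 when 1 library was left out. The replicate block gave 4 members lower in CIH, and 32 names in either direction. The labels do not say whether same-numbered libraries were paired. Deviations of same-numbered libraries correlated at -0.0419, -0.0334 and 0.0342, and those of differently numbered libraries at -0.0507 to 0.0776. With so few libraries these values cannot show whether a pairing or a shared batch exists. The members' median log2 fold change was negative under every alternative, -0.50 to -0.19 with 1 library left out. Direction turned for 6 of the 20 members, each time with 1 library left out: mmu-miR-297a-3p ran from -0.39 to 0.38, mmu-miR-466c-5p from -0.21 to 0.62, mmu-miR-466g from -1.11 to 0.27, mmu-miR-466i-5p from -0.23 to 1.34, mmu-miR-467e-5p from -0.47 to 0.024 and mmu-miR-669c-5p from -0.44 to 0.028. The cause was not tested. Depth limits most the 10 members with a mean under 20 counts per library.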

Other observations

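Of the 8 entries of mmu-miR-466b-3p in the counts, 1 differed from the rest. In Control it held 34, 13 and 28 counts and under CIH 19, 24 and 19. The entry used here held 61, 27 and 63 counts in Control and, under CIH, 43, 50 and 34.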
